A study of Homo sapiens with 5 samples.

Results

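The genes examined here carry glutamine and other amino acids into the cell and turn glutamate into carbon and aspartate. They are 9 genes, chosen by name: the transporters SLC1A5, SLC38A1, SLC38A2, SLC7A5, SLC3A2 and SLC7A11, and the enzymes GLUD1, GOT1 and GOT2. They stand among 20033 protein-coding genes on the main chromosomes. The choice was made with earlier results of these data known. A peak was counted for a gene where it touched the gene body or the 1 kb past either end (RefSeq, hg38). All 9 genes had at least 1 peak, and 36 peaks were counted over the 5 lists. The share of all protein-coding genes with a peak in any list is not given here. The list of the Mediator subunit MED17 alone had a peak at 52.8% of them.

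Binding was measured by chromatin immunoprecipitation and sequencing (ChIP-seq) in Mia PaCa-2 cells, an established line from a human pancreatic cancer. The Mediator subunits MED17 and MED30 and the transcription factor MYC were each mapped once in the parental line under normal culture. MYC was also mapped in Mia PaCa-2 carrying teton shMED30, a doxycycline-inducible hairpin RNA against MED30, after 3 days of doxycycline (labelled 0.5 mg/ml) and without it. Each of the 5 groups was 1 library, so no value has a replicate, no p-value is given, and intervals cover counting error only. For Mediator, cells were crosslinked in 2 steps, with disuccinimidyl glutarate (2 mM, 20 min) before formaldehyde (1%, 10 min); for MYC, formaldehyde alone was used. Whether the hairpin line is a clone is not given in the sources used here, and the level of MED30 after induction was not analysed here.

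Glutamine enters cells through sodium-driven carriers, among them SLC1A5, an exchanger of neutral amino acids, and SLC38A1 and SLC38A2, which import it without exchange. SLC7A5 and SLC7A11 are light chains that pair with the heavy chain SLC3A2: the first pair takes up leucine and other large amino acids in exchange for glutamine, and the second takes up cystine in exchange for glutamate. Inside mitochondria GLUD1 turns glutamate into alpha-ketoglutarate, and GOT2 moves its amino group to oxaloacetate to form aspartate, which GOT1 turns back into oxaloacetate in the cytosol. MYC is known to raise glutamine use in several cell types, and pancreatic cancer cells are known to use the route through GOT2 and GOT1 to make NADPH. Mediator links transcription factors at promoters and enhancers to RNA polymerase II.

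The sequences below are the places where the summits of these peaks, the positions of highest fragment pileup, met or missed the letters that MYC is known to bind. Each is a RefSeq promoter window of the GRCh38.p14 build, 250 bases before an RNA start to 50 after it, written 5′ to 3′ on the strand of its gene. Capitals mark CANNTG, the general E-box, which includes the MYC sequence CACGTG, and CACGCG on either strand (CGCGTG on the other). Of the 9 genes, 8 matched at least 1 window in the table, 13 windows in all; SLC7A11 matched none. The windows are SLC7A5 (chr16:87869458-87869757, minus strand), the upstream start of SLC3A2 (chr11:62855859-62856158, plus), the internal start of SLC1A5 (chr19:46787244-46787543, minus), GOT1 (chr10:99430575-99430874, minus), and 2 windows of noncoding RNA genes that hold the MYC summits of SLC38A1 and SLC38A2: LOC105378248 (chr12:46268861-46269160, plus) and SLC38A2-AS1 (chr12:46372533-46372832, plus).
SLC7A5: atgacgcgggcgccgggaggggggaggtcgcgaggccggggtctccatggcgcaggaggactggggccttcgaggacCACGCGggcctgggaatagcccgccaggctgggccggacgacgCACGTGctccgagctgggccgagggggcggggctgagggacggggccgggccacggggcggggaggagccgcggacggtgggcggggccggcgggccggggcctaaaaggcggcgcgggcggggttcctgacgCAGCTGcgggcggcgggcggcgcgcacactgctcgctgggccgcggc
SLC3A2: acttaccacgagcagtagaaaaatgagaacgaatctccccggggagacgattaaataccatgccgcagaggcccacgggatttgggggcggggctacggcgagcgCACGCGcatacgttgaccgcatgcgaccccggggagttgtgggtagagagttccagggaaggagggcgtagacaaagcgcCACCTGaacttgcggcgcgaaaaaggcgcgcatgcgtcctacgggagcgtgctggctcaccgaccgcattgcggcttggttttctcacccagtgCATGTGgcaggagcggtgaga
SLC1A5: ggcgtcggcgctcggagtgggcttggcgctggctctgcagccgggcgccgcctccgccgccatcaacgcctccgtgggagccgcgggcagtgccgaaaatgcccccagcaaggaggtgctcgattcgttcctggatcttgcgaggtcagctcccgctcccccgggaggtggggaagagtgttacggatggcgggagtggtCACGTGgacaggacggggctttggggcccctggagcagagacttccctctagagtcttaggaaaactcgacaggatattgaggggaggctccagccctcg
LOC105378248: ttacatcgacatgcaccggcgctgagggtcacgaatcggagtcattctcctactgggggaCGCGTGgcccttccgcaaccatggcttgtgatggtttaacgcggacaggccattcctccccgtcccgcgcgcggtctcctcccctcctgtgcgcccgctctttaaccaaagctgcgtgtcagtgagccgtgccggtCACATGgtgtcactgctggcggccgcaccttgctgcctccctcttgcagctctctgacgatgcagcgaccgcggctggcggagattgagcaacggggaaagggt
SLC38A2-AS1: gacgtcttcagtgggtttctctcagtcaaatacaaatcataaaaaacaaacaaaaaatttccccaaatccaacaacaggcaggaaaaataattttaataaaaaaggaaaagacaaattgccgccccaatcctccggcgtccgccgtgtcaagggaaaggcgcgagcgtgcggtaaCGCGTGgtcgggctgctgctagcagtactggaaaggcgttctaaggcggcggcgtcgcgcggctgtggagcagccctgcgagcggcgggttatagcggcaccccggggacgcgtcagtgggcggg
GOT1: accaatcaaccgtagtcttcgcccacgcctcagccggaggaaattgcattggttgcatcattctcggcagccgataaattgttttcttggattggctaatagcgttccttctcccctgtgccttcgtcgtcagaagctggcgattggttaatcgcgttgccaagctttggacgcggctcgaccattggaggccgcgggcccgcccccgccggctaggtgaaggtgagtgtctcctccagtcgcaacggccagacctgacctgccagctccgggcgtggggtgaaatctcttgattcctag

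The SLC7A5 window held CACGTG at position -130 from the RNA start, and the MYC summits with doxycycline (base 87869633) and without it (87869632) both lay inside those letters, at bases 87869632 to 87869637. The parental MYC summit at SLC7A5 was 53 bp away. At SLC3A2 the MYC summits lay 9 bp without doxycycline and 3 bp in parental cells from CACCTG, a general E-box at -65. The CACGCG of that window lay farther off, at 66 bp without doxycycline and 72 bp in parental cells. At SLC38A2 the parental MYC summit fell inside CGCGTG, and at SLC38A1 it lay 17 bp from CACATG. The GOT2 window held CACGCG 498 bp and CAGCTG 638 bp from the parental MYC summit of that gene. At the upstream start of SLC1A5, CACGCG (46788584 to 46788589) lay 14 bp from the summit of the weaker parental MYC peak and 16 bp from that of MED30, while the internal window held CACGTG 409 bp from the nearest MYC summit. The GOT1 window held none of these letters. Nor did that of GLUD1, but no summit of any list fell in it, and the sequence under the GLUD1 MYC summits was not read here.

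CACGTG was thus in 2 of the 13 windows of these genes (15.4%), against 8.31% of the 22048 windows of protein-coding genes. CACGCG was in 4 of the 13 (30.8%, against 14.2%) and CANNTG in 10 (76.9%, against 65.1%). Among protein-coding windows that held a MYC summit, CACGTG was in 42.1% of 304 with doxycycline and in 41.2% of 594 without it. In parental cells it was in 18.7% of 3231. The MYC lists differ in depth and in q cutoff, so these shares cannot be compared directly. All the counts of this paragraph are matches of letters only.

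In parental cells Mediator was found at nearly all of the 9 genes. MED17 had a peak at 8 of 9 (88.9%), where 52.8% of all protein-coding genes had one, and MED30 at 9 of 9, against 46.4%. MYC had a peak at 7 of 9 (77.8%, against 44.2%). The same 7 genes, all but GOT1 and SLC7A11, carried all 3 proteins (77.8%, against 35.5% of protein-coding genes), and at each of them a MYC peak overlapped a peak of each subunit by at least 1 bp (against 32.5%). With a reciprocal overlap of at least 50%, 2 genes (SLC3A2 and GOT2) remained. The share of all protein-coding genes at this setting is not given here, so the drop cannot be read as particular to these genes. In the shMED30 line MYC had a peak at 2 of 9 genes with doxycycline (22.2%, against 7.41%) and at 3 without it (33.3%, against 11.0%). The background counts all protein-coding genes, whether or not they are transcribed in these cells, and expression was not analysed here.

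**Figure D1:**
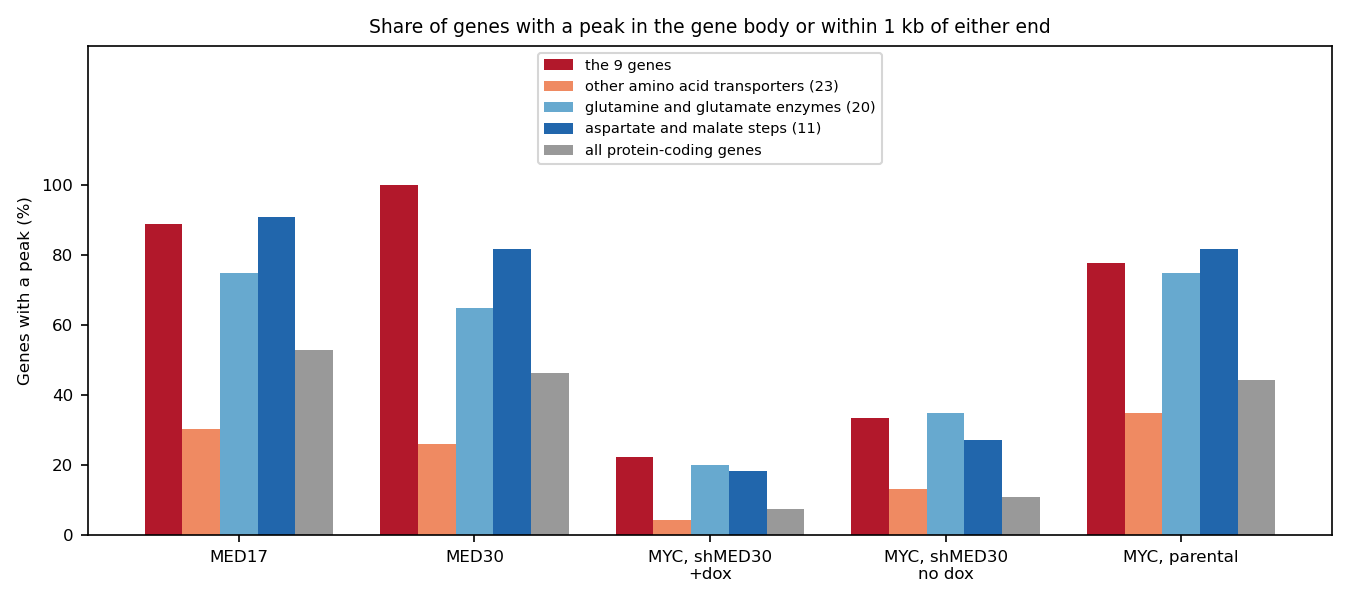
Percentage of genes with at least 1 peak in each of the 5 lists, for the 9 genes, for other genes of the pathway in 3 lists (number of genes in brackets) and for all protein-coding genes. The red bars of the 9 genes stand above the grey bars in every list, from 100% for MED30 to 22.2% for MYC with doxycycline, while the other amino acid transporters stand below the grey bars for both Mediator subunits.

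Peak strength is given as fold enrichment, the authors' ratio of the pileup at the summit to the local background, which can be ranked only within its own list. The pileup itself, in fragments, was recovered from fold and p. Where a gene had peaks, the strongest had a median fold of 5.17 for MED17 (all protein-coding genes with a peak, 5.21), 5.47 for MED30 (5.06) and 4.70 for parental MYC (4.69). In the shMED30 line it was 4.38 for the 2 genes with a doxycycline peak (all genes, 5.06) and 7.39 for the 3 genes with a no-doxycycline peak (5.79). The share of the 9 genes with a peak was thus above that of protein-coding genes in each list, while the parental folds lay near the medians of their lists. Neither was tested.

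**Figure D2:**
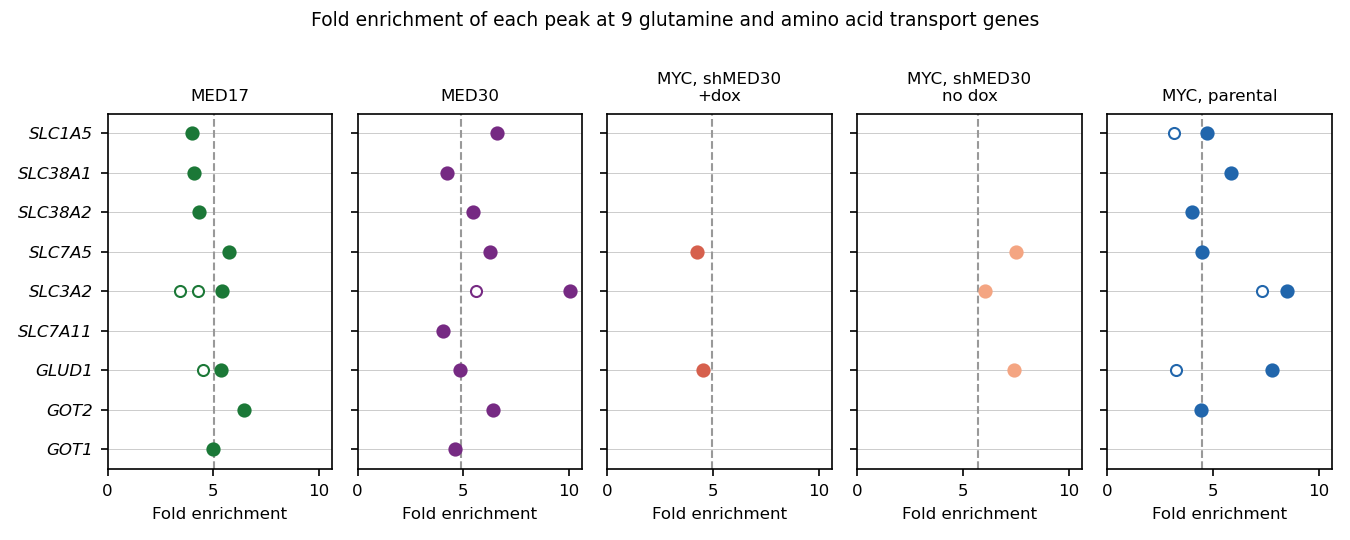
Fold enrichment of each of the 36 peaks at the 9 genes, 1 panel per list; filled points are the strongest peak of a gene, open points its other peaks, and the dashed line is the median of all peaks at protein-coding genes. The MED30 peak of SLC3A2 at 10.0 is the highest point, and the panels of the shMED30 line hold 2 and 3 points.

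Among the glutamine carriers, SLC1A5 (chromosome 19, 46774883 to 46788594) had MYC at a pair of places. At its upstream start, base 46788594, MYC reached a fold of 3.17 (46788390 to 46788695), with a MED30 peak of fold 6.61 at 46788199 to 46788746 whose summit lay 2 bp from that of MYC. The stronger MYC peak, of fold 4.70 at 46786660 to 46787585, covered an internal RefSeq start 1301 bp into the gene, and no MED30 peak reached it. MED17 had 1 peak of 1804 bp, at 46786945 to 46788748, with a fold of 4.00. It covered both starts and the weaker MYC peak, but only part of the stronger one, whose summit (46786929) lay outside it. Within its list, the MED30 peak stood at percentile 87.2 of peaks at protein-coding genes, the MED17 peak at 18.0 and the weaker MYC peak at 5.07.

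SLC38A1 (chromosome 12, 46183063 to 46269043) had a parental MYC peak of fold 5.84 (percentile 78.2) at 46268280 to 46269418. A MED17 peak of fold 4.11 lay inside the gene at 46267470 to 46268717 and a MED30 peak of fold 4.23 across the boundary at 46268748 to 46269521. The MYC peak overlapped both, but the Mediator peaks were 30 bp apart and did not touch. The RefSeq starts of SLC38A1 with a window lie 1056 and 2527 bp inside the boundary, and the MED17 peak covered the first of them. RNA starts of the noncoding gene LOC105378248 lie at -28 and -68 bp from the boundary, on the other strand, so the MYC and MED30 peaks cannot be assigned to SLC38A1 alone.

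SLC38A2 (chromosome 12, 46358188 to 46372773), its neighbour and close relative, had MYC lower in the list, with a fold of 4.02 (percentile 33.9) at 46372567 to 46372984. MED30 was higher in its list there than at SLC38A1, with a fold of 5.47 (percentile 66.6) and a summit 45 bp from that of MYC. The MED17 fold was 4.35 (percentile 28.2), with a summit 361 bp into the gene. SLC38A2-AS1, an antisense RNA gene, starts at -10 bp from the boundary. In the shMED30 line, neither list held a MYC peak for any of these 3 carriers.

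Of the 9 genes, the amino acid exchangers include those with the highest and the lowest MED30 fold. SLC3A2 (chromosome 11, 62856109 to 62888860), the shared heavy chain, carried all 3 proteins at its upstream start and again about its internal RefSeq starts, which lie 24787 and 25590 bp into the gene. At the upstream start MED30 reached a fold of 10.0 with a summit pileup of 93 fragments (exact Poisson 95% interval 75.1 to 114), at percentile 99.2 of MED30 peaks at protein-coding genes. MYC there had a fold of 8.50 and 72 fragments (56.3 to 90.7), at percentile 95.4. MED17 did not peak at the same point: it had a peak of fold 4.27 at 62855255 to 62855982 and another of 3.43 at 62856320 to 62857187, on the outer and the inner side of the start.

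This upstream site is shared with SNHG1, a noncoding RNA gene that hosts several small nucleolar RNAs and starts at -224 bp from the SLC3A2 boundary, on the other strand. The MED30 summit was nearest to the SNHG1 start (-13 bp) and the parental MYC summit to the SLC3A2 start (-68 bp), so the site cannot be assigned to SLC3A2 alone. At the internal site RefSeq lists no other gene within 1 kb of the peaks, and the folds were 5.39 for MED17, 5.59 for MED30 and 7.32 for MYC. By MYC fold it still stood at percentile 91.0 of its list.

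SLC7A5 (chromosome 16, 87830023 to 87869507), the light chain for large amino acids, had 1 peak in each of the 5 lists, all at its RNA start. The folds were 5.74 for MED17, 6.25 for MED30, and for MYC 4.24 with doxycycline, 7.52 without it and 4.47 in parental cells. The summits of MED30 and MED17 lay closer to or inside the gene, at -2 bp for MED30 and 206 bp for MED17 from the start. Those of MYC lay at -126 bp with doxycycline, -125 bp without it and -72 bp in parental cells. Within their own lists the MYC peaks stood at percentiles 35.5 with doxycycline, 79.6 without it and 49.7 in parental cells. Ranks in lists of different lengths cannot show whether MYC binding changed, and this was not tested.

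SLC7A11 (chromosome 4, 138164097 to 138242349), the light chain for cystine, had the least: a MED30 peak of fold 4.06 and 10 fragments (4.80 to 18.4) at the upper boundary, at 138242232 to 138242619. The nearest peak of another list, of parental MYC, was 772 kb away. Of all protein-coding genes, 1.42% (284) shared this pattern of MED30 alone.

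**Figure D3:**
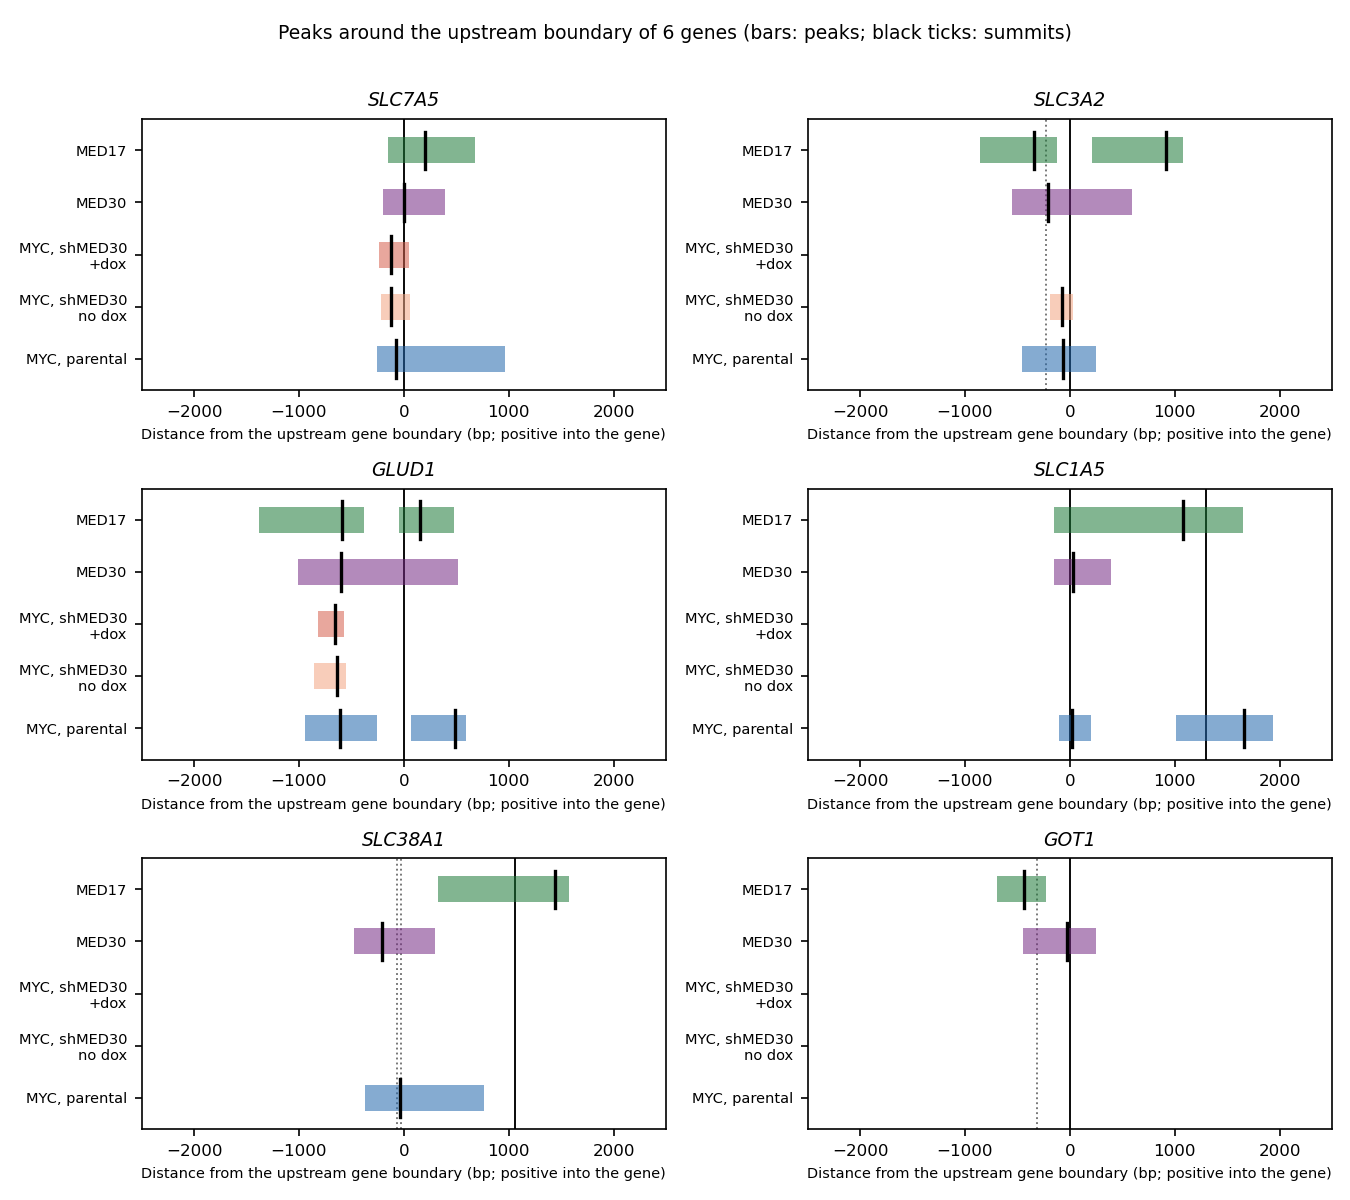
Peaks (bars) and their summits (black ticks) at 6 of the genes against distance from the upstream gene boundary in bp, positive into the gene; solid lines mark RefSeq starts of the gene and dotted lines those of a neighbouring noncoding gene. The MYC summits of SLC7A5 and GLUD1 fall at nearly the same place in all 3 MYC lists, while MED17 flanks the start of SLC3A2 and GOT1 shows Mediator without MYC.

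Among the glutamate enzymes, GLUD1 (chromosome 10, 87050202 to 87094843) had MYC in all 3 MYC lists, outside its boundary and not at its start. The parental peak at 87095100 to 87095789 had a fold of 7.76 and 57 fragments (43.2 to 73.9), at percentile 93.1, with its summit at -605 bp. The summits of MED30 and MED17 lay 1 and 16 bp from it, with folds of 4.84 and 4.50. The stronger MED17 peak of the gene, of fold 5.35, was at the start itself, and a weak MYC peak of fold 3.24 lay inside the gene. The strong site falls within SHLD2, a gene of DNA break repair whose annotated span shares 371 bp with GLUD1, so it cannot be assigned to GLUD1 alone.

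GOT2 (chromosome 16, 58707131 to 58734316), the mitochondrial aminotransferase, had Mediator high in both lists, with folds of 6.44 for MED17 (percentile 83.8) and 6.41 for MED30 (85.0). MYC was near the middle of its list there, with a fold of 4.45 (percentile 49.0) and a summit 466 bp into the gene. RefSeq lists no other gene within 1 kb of its peaks.

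GOT1 (chromosome 10, 99396870 to 99430624), the cytosolic aminotransferase, had Mediator and no MYC in any list. The MED30 peak had a fold of 4.62 and its summit at -28 bp. The MED17 peak had a fold of 4.98 and its summit at -437 bp, nearer to the start of GOT1-DT, a noncoding gene that starts at -312 bp on the other strand. Both subunits without MYC in any of the 3 MYC lists was the pattern of 7.66% (1534) of protein-coding genes. The nearest MYC peak in each list was over 67 kb away.

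In the shMED30 line the MYC library with doxycycline was compared with the one without it. Of the 3 genes with a no-doxycycline peak, SLC7A5 and GLUD1 had an overlapping peak with doxycycline and SLC3A2 had none; over all protein-coding genes with a no-doxycycline peak, 32.9% (728 of 2212) kept an overlapping one. No gene of the 9 had a MYC peak with doxycycline only. Of all protein-coding genes, 1484 (7.41%) had a doxycycline peak, and 728 had a no-doxycycline peak that overlapped one. The share with doxycycline only is not given here, so its absence cannot be read as particular to these genes. The summits lay at -126 bp with doxycycline and -125 bp without it at SLC7A5, and at -661 bp with doxycycline and -642 bp without it at GLUD1. SLC7A5 and GLUD1 were thus the members with MYC in all 3 MYC lists, 2 of 9, against 3.89% of protein-coding genes. At a q of 0.001 or less neither doxycycline peak remained, and with the gene body alone the GLUD1 peaks of the shMED30 line were not counted.

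Depth differed between these libraries and moves with the count. The lowest local background in a list, which scales with the number of fragments, was 0.186 fragments with doxycycline, 0.310 without it and 2.56 in parental cells. At SLC7A5 the summit pileup was 5 fragments with doxycycline (1.62 to 11.7) and 16 without it (9.15 to 26.0). Scaled by the ratio of backgrounds, 0.599, the no-doxycycline value comes to 9.59 (5.48 to 15.6), and the intervals overlap. At GLUD1 it was 6 with doxycycline (2.20 to 13.1) and 12 without it (6.20 to 21.0), which scales to 7.19 (3.72 to 12.6). At SLC3A2 it was 9 without doxycycline (4.12 to 17.1), which scales to 5.40 (2.47 to 10.2), where the lowest pileup of any doxycycline peak at a protein-coding gene was 3. At SLC7A5 and GLUD1 the intervals of the libraries overlap at this depth. Overlap of intervals is not a test, and whether MYC binding differed was not tested. The doxycycline list gives a value only where a peak was called, so it gives none for SLC3A2.

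Peaks of like height elsewhere give the setting for these counts. Of no-doxycycline peaks at protein-coding genes within 1 fragment of the SLC7A5 peak, 65.6% (80 of 122, exact 95% interval 56.4 to 73.9%) had an overlapping doxycycline peak. The share was 46.7% (136 of 291, 40.9 to 52.6%) at the height of GLUD1 and 27.2% (150 of 552, 23.5 to 31.1%) at that of SLC3A2. The loss of the SLC3A2 peak and the keeping of the SLC7A5 peak were therefore each the more frequent outcome at their height; for GLUD1 either outcome was about as frequent.

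**Figure D4:**
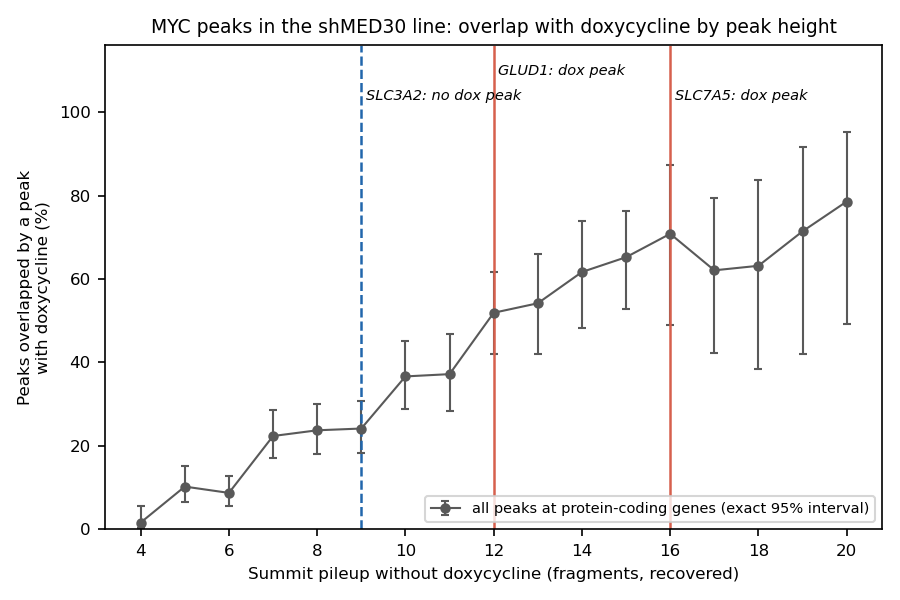
Share of no-doxycycline MYC peaks at protein-coding genes that were overlapped by a doxycycline peak, by summit pileup in fragments from 4 to 20, with exact 95% intervals; vertical lines mark the peaks of SLC3A2 (9 fragments, no doxycycline peak), GLUD1 (12) and SLC7A5 (16). Taller peaks were in general overlapped more often, with shares of 1.56% at 4 fragments and 78.6% at 20.

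The MYC library of the shMED30 line without doxycycline was also set beside the parental MYC library. The lists reach a q of 0.1 in the shMED30 line and 0.05 in parental cells, and their depths differed by a factor of 0.121 by the lowest background. A no-doxycycline peak overlapped the parental one at 3 of the 7 genes with parental MYC (42.9%), against 21.6% of protein-coding genes with a parental MYC peak. SLC3A2 and GLUD1, at 72 and 57 parental fragments, were the tallest parental sites of the set, and 78.7% (59 of 75, 67.7 to 87.3%) and 75.0% (129 of 172, 67.8 to 81.3%) of parental peaks within 3 fragments of them had a no-doxycycline peak. SLC7A5, at 37 parental fragments, had one where 39.5% (270 of 683) of like peaks did. The internal SLC1A5 peak was as tall, at 38 fragments, and had none, as had the internal SLC3A2 peak at 49 fragments, where 61.5% (139 of 226) of like peaks had one. At SLC38A2, with 19 fragments, the share for like peaks was 5.45%, so having no peak was the usual outcome at that height.

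Other genes of the same pathway, in lists chosen with earlier results of these data known, differed in how many had peaks. Of 20 glutamine and glutamate enzymes, 15 had MED17 (75.0%, against 52.8% of all protein-coding genes) and 13 had MED30 (65.0%, against 46.4%). Parental MYC was at 15 (75.0%, against 44.2%), with a median MYC fold of 6.42 against 4.69 for all genes with a peak. All 3 proteins were found at 13 of the 20 enzymes, where 35.5% of all protein-coding genes had them. The 13 were led by CTPS1, which makes CTP with glutamine nitrogen (MYC folds 9.02 with doxycycline, 10.4 without it and 9.87 in parental cells), and PYCR1, the last step of proline synthesis (5.82 with doxycycline, 12.0 without it and 9.33 in parental cells). PPAT, which starts purine synthesis with glutamine, had a MYC peak in all 3 lists too (7.09 with doxycycline, 8.34 without it and 6.85 in parental cells). CAD, which starts pyrimidine synthesis with glutamine, had none with doxycycline, a fold of 9.76 without it and 8.04 in parental cells.

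Of 11 genes related to the aspartate and malate steps around GOT2 and GOT1, 10 had MED17 (90.9%, against 52.8% of all protein-coding genes). MED30 was at 9 (81.8%, against 46.4%) and parental MYC at 9 (81.8%, against 44.2%). MDH2, mitochondrial malate dehydrogenase, had MYC in all 3 lists (7.10 with doxycycline, 10.2 without it, 9.18 in parental cells), and so did SLC25A13, a mitochondrial aspartate-glutamate carrier (5.25 with doxycycline, 6.82 without it, 8.23 in parental cells). SLC25A22, a mitochondrial glutamate carrier, had no MYC peak with doxycycline and folds of 6.37 without it and 5.99 in parental cells. SLC25A12, the second aspartate-glutamate carrier, had MYC in parental cells alone (5.61).

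Of 23 other amino acid transporters, 7 had MED17 (30.4%), 6 MED30 (26.1%) and 8 parental MYC (34.8%), each below the share of all protein-coding genes. SLC7A1, a carrier of arginine and lysine, had MYC in all 3 lists (5.87 with doxycycline, 8.47 without it, 10.2 in parental cells) and MED17 (8.73) but no MED30 peak. SLC7A6, a light chain of SLC3A2 like SLC7A5, had all 3 proteins in parental cells (MYC 7.20) and a MYC peak of 5.73 without doxycycline that had no counterpart with it. SLC36A4 had MYC of 3.91 without doxycycline and 4.82 in parental cells, with high Mediator (MED17 9.49, MED30 8.32). SLC38A10 (MYC 4.91) and SLC43A2 (3.65) also carried all 3 proteins.

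Across the series, the lists held 4621 peaks (MYC with doxycycline) to 14331 (parental MYC), and 27.7% to 77.5% of a list lay at protein-coding genes. The labelled cell line was checked by peaks at marker genes of cell types. None of 7 pancreatic acinar genes had a peak in any list, nor had the epithelial genes CDH1, EPCAM and KRT7. Among 6 epithelial genes, MED17 was at 3, MED30 at 3 and parental MYC at 2. The MYC genes were KRT8 and KRT18, the keratins of simple epithelia, which carried all 3 proteins. Their parental MYC fold was the same (4.82), so a shared peak may have been counted for both. All 4 mesenchymal genes carried both Mediator subunits, with MYC at VIM. Since MED17 was at 52.8% and MED30 at 46.4% of all protein-coding genes, these few markers cannot settle the cell type. Of 7 immune genes 2 had Mediator peaks and 1 of them MYC (CD8A), and of 7 fibroblast genes 1 had Mediator peaks; their part in the results was not tested.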

How the data were processed

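Each deposited file is a peak list of 1 library in the narrowPeak layout. The submitters' processing notes name MACS2, Bowtie2, Trim Galore and deepTools, and hg38 as build; no source used here gives versions or says whether an input control was used. Per the labels reads were paired, 100 bp long. The deposited fold enrichment is a ratio made by the authors, and the deposited −log10 p-value and −log10 q-value are the authors' significance of each peak. The score the authors deposited equals −log10 q multiplied by 10 and cut to a whole number in all peaks of 4 lists and in 99.99% of the MED30 peaks. Lists start at a q of 0.05 in parental cells and 0.1 in the shMED30 line.

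Gene spans came from RefSeq (GRCh38.p14), and strand and RNA starts from its promoter windows. Pileup and background were solved from fold, taken as (pileup + 1)/(background + 1), and a Poisson p, to a tolerance of 0.002 in log10 p; this solved 99.6% to 99.9% of the peaks in a list. Pileup recovery, gene assignment and overlap were tested on simulated data. The simulated fold and p were made with these same formulas, so this checked the solving only. It could not show whether the deposited values follow them. Overlap means at least 1 shared bp. Percentiles are among peaks at protein-coding genes of the same list. Intervals are exact (Clopper-Pearson or Poisson, 95%). Work was done in Python 3.11.15 with pandas 2.3.3, numpy 2.4.6 and scipy 1.17.1.

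The members, lists and rules were chosen with earlier results of these data known. All 9 members are named; of each pathway list, up to 4 genes with the highest parental MYC fold among those with all 3 proteins, and up to 4 with the highest no-doxycycline fold. Alternatives covered the window, the peak threshold, the overlap and the length of the parental MYC list.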

Additional observations from a re-analysis of the deposited data

How the results depend on the processing

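Of 71 counts under alternative settings, 52 lay within 1.5 times the reported count and 19 did not. Shares of all protein-coding genes under these settings are not given here, so no drop can be read as particular to these genes. With the gene body alone, GLUD1 dropped out, leaving 1 gene with a doxycycline peak, 1 that kept its peak and 1 with MYC in all 3 MYC lists. At a q of 0.001 or less, and likewise when each list was limited to its upper 50% in fold, each of these 3 counts was 0. The upper 50% by fold also left 4 genes with MED17, 4 with parental MYC, 2 with all 3 proteins and 1 with overlapping peaks of all 3. With the parental MYC list shortened to the length of the no-doxycycline list, 4 genes had MYC, 4 had all 3 proteins, 3 had overlapping peaks and 1 had MYC in all 3 MYC lists. Overlapping peaks of all 3 proteins were found at 2 genes with a reciprocal overlap of at least 50% and at 1 with centres within 250 bp. Fewer peaks enter under the thresholds; for the other settings the cause was not tested. A count restricted to peaks whose summit was nearest to a RefSeq start of the gene itself, chosen after seeing the data, gave 6 genes with MYC in parental cells. No paired analysis was possible because each group holds 1 library. Depth limits the shMED30 lists, where the median summit pileup at protein-coding genes was 6 fragments with doxycycline and 8 without it.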

Other observations

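Other peaks lay farther from several of the 9 genes, outside the 1 kb window. The nearest were about 10 kb upstream of SLC38A2, where MED17 had a fold of 3.80, MED30 of 6.29 and parental MYC of 5.64; within its list, MYC had a higher fold there than at the gene itself. About 14 kb upstream of SLC3A2 lay a MED30 peak of fold 11.5, with MED17 at 7.82 and parental MYC at 3.39. About 23 kb downstream of SLC7A5 MYC had a peak of fold 5.09 with doxycycline and 3.77 in parental cells, and the list without doxycycline had none in that place. The MYC peaks nearest to GOT1, about 67 kb downstream, had folds of 5.74 with doxycycline, 7.38 without it and 5.90 in parental cells. These sites were singled out after their values were seen. Whether other genes lie nearer to them was not examined here, so they cannot be assigned to the genes named.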
